A study of Caenorhabditis elegans with 10 samples.

Results

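The clec genes of Caenorhabditis elegans, which encode proteins with C-type lectin domains, were followed on 10 Affymetrix arrays of whole animals. They were chosen by symbol: probe sets annotated to 1 gene named clec and a number gave 236 probe sets and 220 genes, of 17118 genes with such a probe set, and the probe set with the highest mean signal over the 10 arrays stood for each gene. The arrays formed 3 groups at the L4 larval stage: the wild-type strain N2 with control RNAi (n = 3), wdr-23 mutants with control RNAi (n = 4) and wdr-23 mutants with skn-1 RNAi (n = 3). The mutants carried 1 allele, written tm1718 in the sample labels and tm1817 in the series' design text. In all groups the animals, 200 to 500 per replicate, had been fed HT115 bacteria making double-stranded RNA, grown with lactose at 0.2% and carbenicillin at 50 ug/ml, so the wild type too was on RNAi food. Most, not all, animals were at L4 when collected, the labels call the replicates biological, and N2 with skn-1 RNAi was not among the groups analysed here.

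C-type lectins are built around a compact domain that in many animals binds sugars with the help of calcium, although many worm members lack the residues for this and their ligands are unknown. Most worm family members are predicted to be secreted, they lie in tandem groups on the chromosomes, and many are switched on in the intestine when the worm meets bacterial pathogens, partly through the p38 MAP kinase PMK-1. The WD-repeat protein WDR-23 directs the transcription factor SKN-1, the worm relative of Nrf2, to a cullin ubiquitin ligase for destruction, so worms without it keep high SKN-1 activity.

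The signals are MAS5 intensities on a linear scale, and array medians ran from 113 to 139.7. The wdr-23 transcript gave 865 ± 151 (n = 3, SD) in N2, 3259 ± 453 (n = 4, SD) in the mutant on control RNAi and 902 ± 18.6 (n = 3, SD) on skn-1 RNAi. Where its probes lie relative to the deletion is not given, so this signal does not check the genotype. The skn-1 signal was 474 ± 70.1 (n = 4, SD) in the mutant on control RNAi and 257 ± 27.996 (n = 3, SD) on skn-1 RNAi, a log2 change of -0.83 (adjusted p = 0.000708, SE 0.14). On skn-1 RNAi the skn-1 signal was also called lower than in N2, so it did not merely return to the wild-type level. In the mutant on control RNAi it was not called against N2. All 7 genes of a list of SKN-1 readouts rose in the mutant, and all 7 fell on skn-1 RNAi but stayed above N2. Defining markers of intestine, epidermis, neurons, muscle, pharynx, sperm and oocytes all passed the filter on low signals. In RNA from whole animals, fewer cells of a type and less RNA per cell cannot be told apart.

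A gene was tested where its probe set was above the lowest 30% by mean log2 value, and 95 of the 220 clec genes passed. The other 125 were dim, with a median signal of 12.9 and no group mean above 60.6. Changes are of log2(signal + 19), from a limma fit of the 3 groups together with Benjamini-Hochberg adjustment of p-values across the 15783 tested probe sets, and a gene was called at an adjusted p under 0.05. Adding 19 makes the fold smaller than the ratio of signals where a group is dim. In 7 of the 95 tested genes, among them clec-2, clec-64, clec-163 and clec-198, only the mutant on control RNAi had a mean above this limit. Such a gene had to be higher in that group to be tested at all, and 6 of the 7 were called higher there than in N2 and 4 lower on skn-1 RNAi. Levels are compared only within a probe set, since probe sets differ in brightness for reasons of their own.

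**Figure D1:**
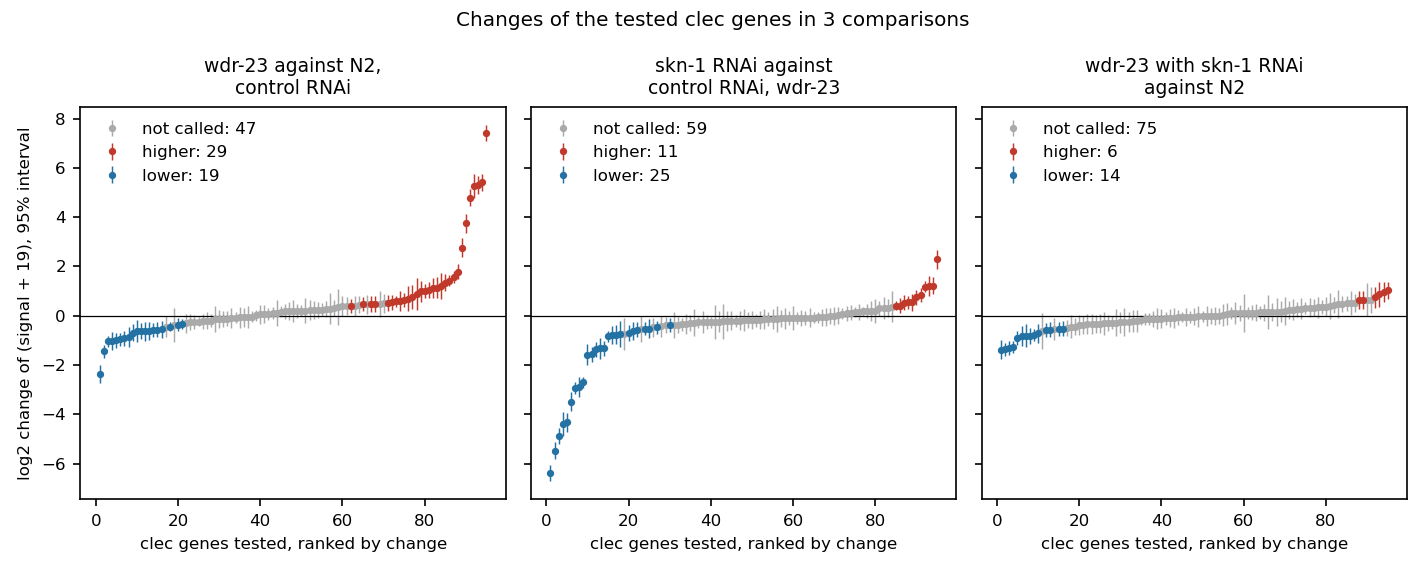
Log2 change of signal + 19 with its 95% interval for each of the 95 tested clec genes, ranked within each of 3 comparisons; red points were called higher, blue lower, grey not called. The counts called higher and lower are 29 and 19, 11 and 25, and 6 and 14, and the right-hand comparison spans the narrowest range, from -1.38 to 1.03.

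Loss of wdr-23 on control RNAi changed many clec genes, in both directions. The largest rises were in clec-3, clec-2, clec-17, clec-74 and clec-163, which were dim in N2 and bright in the mutant. The largest falls were in clec-10 and clec-4. In all, 29 of 95 rose (30.5%), where 17.4% of all tested probe sets were called higher, and 19 fell (20%), where 10.1% were called lower. The median log2 change was 0.19 over the tested members and 0.01 over all tested probe sets. Quantile normalization gave 19 rises and 21 falls and median centring 19 and 26. These scalings moved the log2 changes of all tested probe sets by a median of -0.12 and -0.20, and changes are given relative to the deposited scaling. The shares of all probe sets called under the other scalings are not given here. The excess of clec genes over all probe sets is thus stated for the deposited scaling only.

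The signals of clec-3 were 20.5, 7.21 and 21.6 in N2 and 5559, 5625, 6551 and 5983 in the mutant on control RNAi. On skn-1 RNAi they were 47.5, 48.04 and 61.3. All mutant control arrays stood far above the other 6, and the skn-1 RNAi arrays lay a little above those of N2 without overlap. The log2 change was 7.42 (adjusted p = 1.29e-15, SE 0.16) in the mutant and -6.39 (adjusted p = 2.25e-14, SE 0.16) on skn-1 RNAi. The N2 arrays lay around the added 19, which therefore sets the size of the rise, 171-fold on this scale. For clec-2, the next gene on the chromosome, N2 gave 12.7, 12.3 and 15.96, the mutant 1376, 1404, 1255 and 1426 and the mutant on skn-1 RNAi 20.9, 6.30 and 11.2. Here the N2 and skn-1 RNAi arrays overlapped. The log2 changes were 5.40 (adjusted p = 9.65e-14, SE 0.16) in the mutant and -5.47 (adjusted p = 2.05e-13, SE 0.16) on skn-1 RNAi. The test of clec-2 was open only through the mutant control arrays.

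A probe set of clec-17, a lectin gene tied to infection in earlier work, gave 27.3, 8.44 and 25.6 in N2, 1443, 1662, 1477 and 1379 in the mutant and 64.8, 45.6 and 58.4 with skn-1 RNAi. That probe set bears the suffix for sequences shared between transcripts, so related transcripts may add to its signal. Its log2 change was 5.29 (adjusted p = 4.33e-13, SE 0.18) in the mutant. The pattern of clec-74 was similar, with 74.4, 36.6 and 20.5 in N2, 2613, 1825, 2525 and 2099 in the mutant and 94.9, 67.9 and 107 on skn-1 RNAi, and its rise was 38.3-fold (log2 change 5.26, adjusted p = 1.98e-11, SE 0.23).

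The remaining large rises started from different levels. In clec-163, N2 lay at 3.13, 2.93 and 10.1, the mutant at 669.9, 656, 625 and 655 and the skn-1 RNAi arrays at 3.30, 3.05 and 5.06, so that outside the mutant control group every array was below the added 19. The log2 change of clec-163 was 4.79 (adjusted p = 4.33e-13, SE 0.16), with its size set by the 19 and its test open only through the mutant control arrays. In clec-143 the same groups gave 60.9, 86.6 and 59.8, then 1339, 1095, 1438 and 829, then 74.4, 79.5 and 103. That is a rise of 13.4-fold (log2 change 3.74, adjusted p = 9.74e-11, SE 0.18), with the mutant control arrays more spread than for clec-163. For clec-64 the mean was 12.2 ± 3.47 (n = 3, SD) in N2, 195 ± 39.6 (n = 4, SD) in the mutant and 9.72 ± 1.67 (n = 3, SD) with skn-1 RNAi. Its log2 change in the mutant was 2.77 (adjusted p = 1.02e-08, SE 0.19), and its test too was open only through the mutant control arrays.

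The next 3 rises began from brighter N2 signals. The mean of clec-72 was 147 ± 22.8 (n = 3, SD) in N2 and 549 ± 56.7 (n = 4, SD) in the mutant, and the log2 change was 1.78 (adjusted p = 7.07e-08, SE 0.14). Its dimmer probe set rose too, by 2.01 on the log2 scale. The infection-linked genes clec-67, whose expression is known to depend on PMK-1, and clec-66 rose 2.97-fold and 2.67-fold. N2 gave 468, 448 and 393 for clec-67 and the mutant 1342, 1299.7, 1462 and 1219.5. For clec-66 N2 gave 939.8, 1020.4 and 975 and the mutant 2559, 2651, 2535 and 2842. In both genes the arrays of the 2 groups were far apart relative to their spread, with log2 changes of 1.57 (adjusted p = 2.82e-08, SE 0.12) for clec-67 and 1.42 (adjusted p = 2.71e-08, SE 0.11) for clec-66. The other 19 rises ran from 0.41 in clec-187 to 1.34 in clec-180. That of clec-187 was not called under either other scaling (0.35 and 0.21), with a replicate block (0.35) or without any of 5 single arrays (0.35 to 0.43). The rises of clec-28, clec-37, clec-53, clec-117, clec-134, clec-139, clec-145, clec-151 and clec-152 were likewise not called under either other scaling. Each of them also lost its call when some single array was left out.

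**Figure D2:**
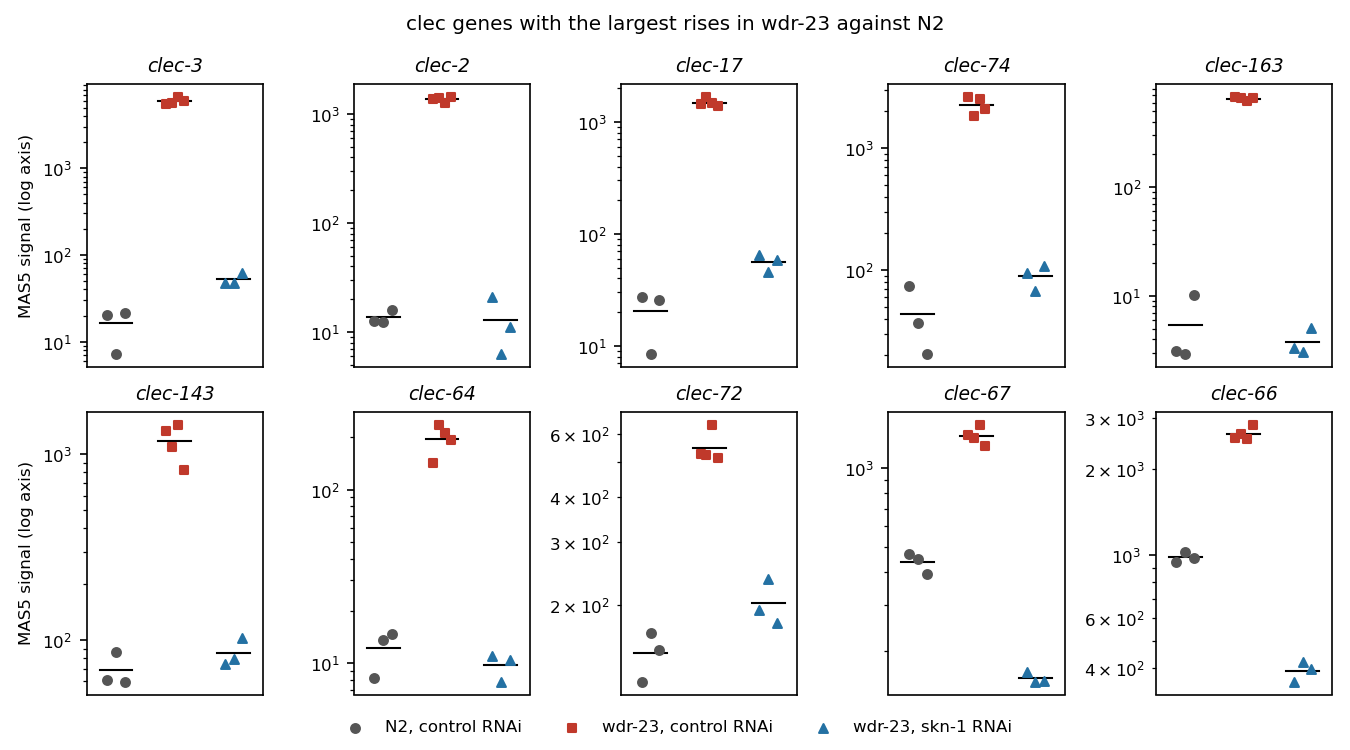
MAS5 signals on log axes for the 10 clec genes with the largest rises in the mutant, 1 panel per gene with its own scale; points are arrays and lines are group means (n = 3 for N2, 4 for the mutant on control RNAi and 3 on skn-1 RNAi). In all 10 panels the mutant control arrays lie above the other 6, and in clec-67 and clec-66 the skn-1 RNAi arrays lie below those of N2.

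Among the falls, clec-10 stood out in size. Its signals were 474, 539.8 and 419.9 in N2, 95.5, 56.5, 100.5 and 62.6 in the mutant and 501, 490.04 and 365 on skn-1 RNAi. The mutant control arrays were all low, while the skn-1 RNAi arrays overlapped with N2. The fall was 5.16-fold (log2 change -2.37, adjusted p = 3.09e-08, SE 0.18), and the second clec-10 probe set fell by 1.88 on the log2 scale. In clec-4, a gene induced by infection in earlier work, N2 gave 899, 1066 and 908, the mutant 358, 391, 326 and 288 and the skn-1 RNAi group 469, 485 and 550.01, 3 separate levels. Its fall in the mutant was 2.72-fold (-1.45, adjusted p = 3e-07, SE 0.13).

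Next in size were clec-150 and clec-47. The clec-150 mean fell from 1593 ± 82.8 (n = 3, SD) to 766 ± 87.1 (n = 4, SD) (log2 change -1.04, adjusted p = 2.93e-06, SE 0.11), and its dimmer probe set fell by 0.88 on the log2 scale. For clec-47 N2 gave 6825, 7501 and 5252 and the mutant 3077, 3676, 3915 and 2173, groups that were spread but did not overlap (log2 change -1.04, adjusted p = 0.000353, SE 0.17). The infection-linked genes clec-52, clec-85, clec-49, clec-60 and clec-70 fell by 1.61- to 1.996-fold. The signal of clec-85, which is known to depend on PMK-1, was 1452 ± 84.5 (n = 3, SD) in N2 and 740.3 ± 98.2 (n = 4, SD) in the mutant (log2 change -0.96, adjusted p = 1.83e-05, SE 0.12). In clec-60, a gene of the host response to Staphylococcus aureus, N2 gave 92.3, 121 and 81.8 and the mutant 36.6, 55.1, 57.5 and 33.3 (log2 change -0.87, adjusted p = 0.00288, SE 0.19). Of the falls with groups apart, the tenth largest, in clec-223, was -0.62, and the smallest, in clec-50, was -0.33.

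Markers of other tissues moved in the same comparison. Of 7 oocyte markers 5 fell in the mutant and the others were not called, with summed signals of 43670 to 47499 in N2, 32882 to 37703 in the mutant and 40235 to 45797 on skn-1 RNAi. Of 8 sperm markers 5 rose and the others were not called, with sums of 21777 to 25082, 25230 to 26951 and 27707 to 30720 in the same order. Rises were also called in 3 of 6 epidermal, 2 of 6 neuronal, 2 of 5 body wall muscle and 1 of 4 pharyngeal markers, and on skn-1 RNAi falls in 3, 2, 1 and 3 of them. Over all tested probe sets 17.4% were called higher and 10.1% lower in the mutant, and 12.6% lower on skn-1 RNAi. Lists this short give only coarse shares to set beside these. No listed marker was at 0, and the part of tissue makeup in the lectin changes was not tested.

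**Figure D3:**
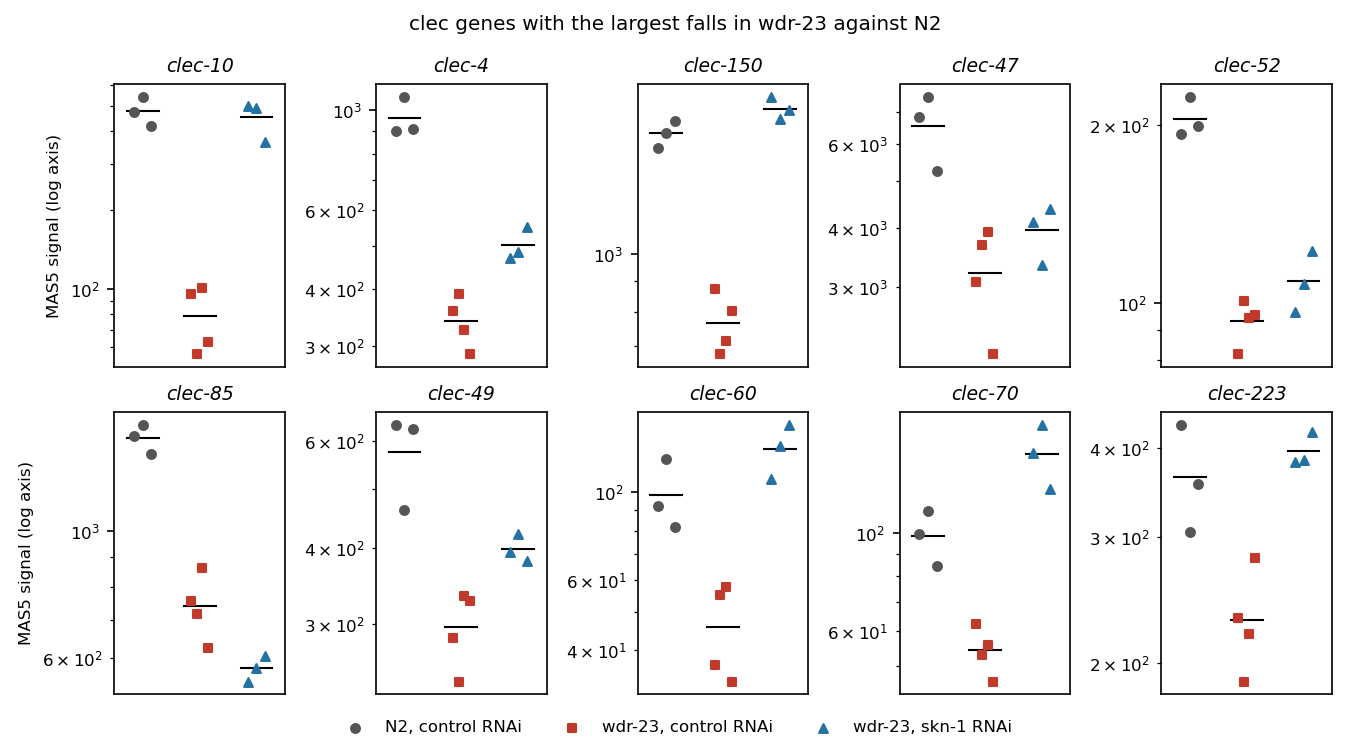
MAS5 signals on log axes for the 10 clec genes with the largest falls in the mutant, 1 panel per gene with its own scale; points are arrays and lines are group means (n = 3, 4 and 3). The mutant control arrays lie below every N2 array in all 10 panels, while the skn-1 RNAi arrays overlap with N2 in clec-10, clec-60 and clec-223 and lie below N2 in clec-4, clec-47, clec-52, clec-85 and clec-49.

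The second comparison asked which clec signals of the mutant depend on skn-1, with wdr-23 animals on both kinds of RNAi food. On skn-1 RNAi 25 of 95 genes fell (26.3%), where 12.6% of all tested probe sets were called lower, and 11 rose (11.6%), where 9.99% were called higher. The share that rose was thus near that of all probe sets. The median log2 change was -0.19 over the tested members and -0.01 over all tested probe sets. Median centring gave 20 falls and 14 rises, and the shares of all probe sets under it are not given here. This comparison shares the mutant control arrays with the first, so a chance deviation of those arrays moves both in opposite directions.

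The largest falls, all with groups apart, were in clec-3 (-6.39), clec-2 (-5.47), clec-163 (-4.88), clec-74 (-4.39), clec-17 (-4.33) and clec-143 (-3.49), as log2 changes. The clec-74 signal went from 2266 ± 369.8 (n = 4, SD) to 90.03 ± 20.1 (n = 3, SD) and that of clec-143 from 1175 ± 272 (n = 4, SD) to 85.7 ± 15.4 (n = 3, SD). In clec-67 the skn-1 RNAi arrays were at 166, 152 and 153, 7.65-fold under the mutant control mean and also under all N2 arrays (log2 change -2.93, adjusted p = 1.24e-11, SE 0.12). The same held for clec-66, with skn-1 RNAi arrays at 359, 422 and 396 and a log2 change of -2.70 (adjusted p = 1.08e-11, SE 0.11). The fall of clec-64 was -2.88. The dim clec-198 went from 64.002, 68.2, 86.5 and 80.7 to 5.59, 17.1 and 15.4, a log2 change of -1.58 (adjusted p = 3.11e-05, SE 0.20). Its second probe set, also dim, was not tested. Like clec-2, clec-163 and clec-64, clec-198 passed the filter only through the mutant control arrays.

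Some genes fell on skn-1 RNAi without having risen in the mutant. For clec-41, which encodes an effector against Bacillus thuringiensis in earlier work, N2 gave 2229, 1958 and 2365, the mutant 2178, 2171, 2494 and 2253 and the skn-1 RNAi group 1438, 1182 and 1175. The first 2 groups overlapped and the third lay below both, with log2 changes of 0.06 (adjusted p = 0.718, SE 0.11) in the mutant and -0.84 (adjusted p = 4.98e-05, SE 0.11) on skn-1 RNAi. That probe set too has the suffix for shared sequences. The infection-linked clec-186 gave 1763 ± 189 (n = 3, SD) in N2 and 2095 ± 269 (n = 4, SD) in the mutant, changing by -0.52 (adjusted p = 0.00629, SE 0.12) on skn-1 RNAi to 1448 ± 117 (n = 3, SD). In clec-174 the mean went down in 2 steps, with 568 ± 141 (n = 3, SD) in N2, then 359.9 ± 40.6 (n = 4, SD) in the mutant, then 205 ± 42.5 (n = 3, SD) on skn-1 RNAi, with log2 changes of -0.61 (adjusted p = 0.016, SE 0.17) and -0.77 (adjusted p = 0.00489, SE 0.17). The first clec-174 step lost its call without N2 replicate 2 (-0.45) or 3 (-0.58).

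The rises on skn-1 RNAi were led by clec-10, from 78.8 ± 22.4 (n = 4, SD) to 452 ± 75.5 (n = 3, SD), 4.87-fold (log2 change 2.28, adjusted p = 7.61e-08, SE 0.18). Its second probe set rose by 1.77. For clec-70 the mutant control arrays gave 62.2, 52.9, 55.9 and 46.1 and the skn-1 RNAi arrays 152, 176 and 126. On the same scale that rise was 2.32-fold (log2 change 1.21, adjusted p = 4.98e-05, SE 0.16). The mean of clec-60 rose to 129 ± 19.9 (n = 3, SD) (log2 change 1.21, adjusted p = 0.00025, SE 0.19), and that of clec-150 to 1755 ± 74.9 (n = 3, SD) (log2 change 1.18, adjusted p = 9.36e-07, SE 0.11). Smaller rises were those of clec-5 (0.84), clec-223 (0.75), clec-86 (0.54), clec-4 (0.54), clec-222 (0.53) and clec-49 (0.42). The clec-49 call, at an adjusted p of 0.0493 in the limma fit, was lost without any 1 of 7 arrays (0.33 to 0.45), with a pseudocount of 100 (0.34), without the filter and without the intensity trend (0.42 in both). The clec-86 call was lost without any of the 3 skn-1 RNAi arrays (0.48 to 0.58) or mutant control replicate 3 (0.38), and that of clec-222 without skn-1 RNAi replicate 3 (0.45).

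The third comparison set the mutant on skn-1 RNAi against N2 on control RNAi, which differ in genotype and in RNAi food together. It shares the N2 arrays with the first comparison and the skn-1 RNAi arrays with the second. Fewer clec genes differed, and more of them were lower than higher. Of 95, 14 were lower (14.7%), where 2.46% of all tested probe sets were called lower, and 6 were higher (6.32%), where 3.88% were called higher. The median log2 change was -0.03 over the tested members and 0.03 over all tested probe sets. Quantile normalization gave 3 higher and 14 lower, and median centring 3 and 15, again without the shares of all probe sets under those scalings. The counts were small and depended on single arrays: 3 higher and 8 lower were called without N2 replicate 1 or without skn-1 RNAi replicate 1 or 2, 3 and 9 without skn-1 RNAi replicate 3, and 2 were higher without N2 replicate 2.

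The 4 genes lower by more than 2-fold were all on the infection list, which was written with earlier results of these data known. They were clec-174 (log2 change -1.38, adjusted p = 0.000159, SE 0.19), clec-67 (-1.37, adjusted p = 1.87e-06, SE 0.13), clec-85 (-1.30, adjusted p = 4.98e-06, SE 0.13) and clec-66 (-1.28, adjusted p = 1.21e-06, SE 0.11). In clec-85 the skn-1 RNAi arrays, at 546, 578 and 605, lay below all N2 arrays, at 1463, 1531 and 1363, and below the mutant control arrays, at 756, 716, 863 and 626. The clec-85 difference between the mutant groups was -0.34 (adjusted p = 0.0511, SE 0.12) and did not pass. Further lower genes were clec-4 (-0.91), clec-230 (-0.83), clec-266 (-0.81), clec-52 (-0.81), clec-41 (-0.78), clec-47 (-0.72), clec-48 (-0.58), clec-173 (-0.57), clec-65 (-0.53) and clec-51 (-0.52). The calls of clec-266, clec-47 and clec-51 were each lost without the filter, without the intensity trend and without several single arrays (-0.93 to -0.57, -0.80 to -0.60 and -0.55 to -0.37). Single arrays also ended those of clec-230 (-0.76 to -0.74) and clec-65 (-0.52 to -0.41), as well as those of clec-48 (-0.56 to -0.50) and clec-173 (-0.62 to -0.45). The clec-173 call was also lost without the filter.

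Higher than N2 were clec-3 (log2 change 1.03, adjusted p = 0.000984, SE 0.17), clec-17 (0.96, adjusted p = 0.0047, SE 0.19), clec-74 (0.87, adjusted p = 0.043, SE 0.24), clec-227 (0.75, adjusted p = 0.0407, SE 0.21), clec-117 (0.64, adjusted p = 0.0301, SE 0.17) and clec-180 (0.63, adjusted p = 0.0356, SE 0.17). In clec-3 and clec-17 the groups were apart, although both had N2 means near the added 19, and the clec-17 call was lost with a pseudocount of 100 (0.38). The clec-74 arrays of the 2 groups overlapped, and its call was lost in 12 of 20 alternatives (0.41 to 0.87), among them no filter, a pseudocount of 100, both other scalings and each of 6 single arrays left out. With any of several single arrays left out, clec-227 (0.61 to 0.80), clec-117 (0.58 to 0.68) and clec-180 (0.53 to 0.66) were not called, and clec-227 and clec-180 were not called under either other scaling or with a pseudocount of 100 (0.41 and 0.46). For clec-2 and clec-163 both groups were dim, around or below the added 19, so this scale sets no useful limit on a difference between them and no comparison is made.

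Lectin genes that earlier worm work tied to infection were taken as a list of 21, written from memory. Earlier results of these data were known when the list was written, so its shares are not independent of the data. Of the 21 genes, 18 were tested and clec-39, clec-61 and clec-71 were too dim. Loss of wdr-23 raised 3 of the 18 (16.7%, beside 17.4% of all tested probe sets) and lowered 9 (50% beside 10.1%). On skn-1 RNAi 5 rose (27.8% beside 9.99%) and 6 fell (33.3% beside 12.6%). Against N2 the mutant on skn-1 RNAi was higher in 1 (5.56% beside 3.88%) and lower in 8 (44.4% beside 2.46%). The 3 that rose in the mutant are thus no larger a share than among all probe sets. Among all 95 tested clec genes, which include the list, 30.5% rose and 20% fell in the mutant. On skn-1 RNAi 11.6% of the 95 rose and 26.3% fell, and against N2 6.32% were higher and 14.7% lower. For the listed genes the medians of the log2 changes were -0.40, -0.10 and -0.51. The 3 that rose in the mutant were clec-17, clec-66 and clec-67. The 9 that fell were clec-4, clec-52, clec-85, clec-49, clec-60, clec-70, clec-174, clec-86 (-0.55) and clec-65 (-0.36). The clec-65 call, at an adjusted p of 0.0416 in the limma fit, was lost in 11 of 20 alternatives, including the replicate block, and its second probe set changed by 0.02. The clec-86 call was lost without N2 replicate 1 (-0.55). Not called in any comparison were clec-7 (0.20 in the mutant), clec-42 (-0.44), clec-63 (-0.08) and clec-82 (0.21).

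**Figure D4:**
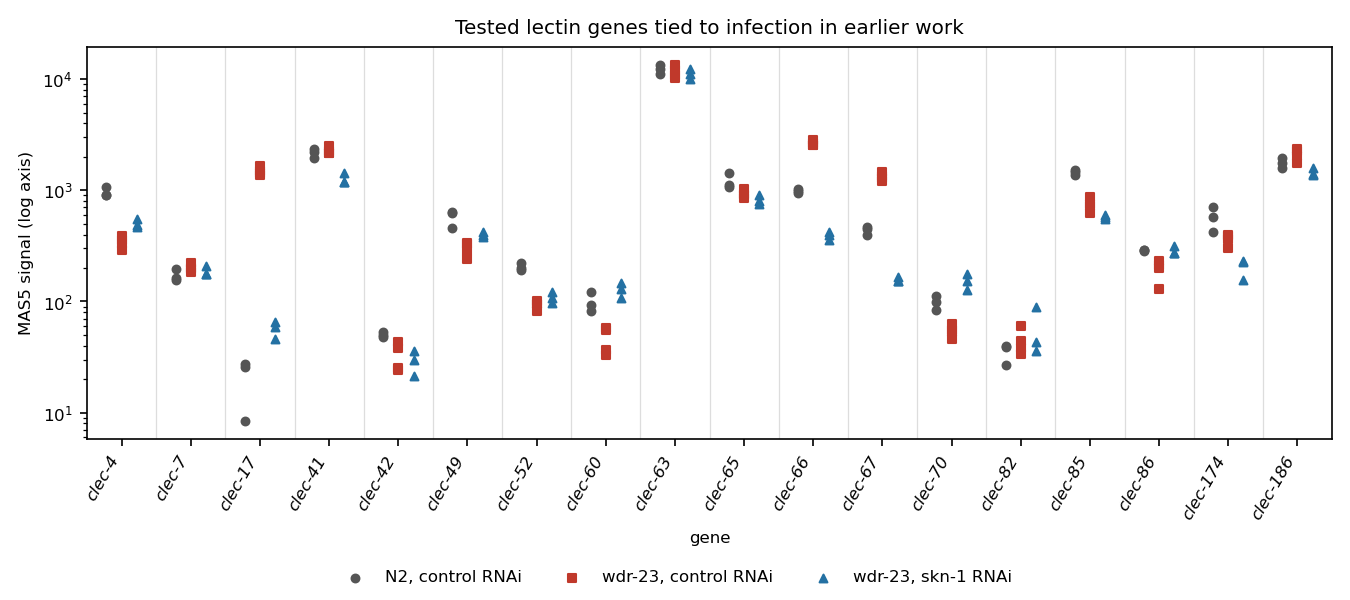
MAS5 signals of each array on a log axis for the 18 tested clec genes of the infection list, with N2 in grey, the mutant on control RNAi in red and on skn-1 RNAi in blue. The red points lie above both other groups in clec-17, clec-66 and clec-67, and below the grey ones in genes such as clec-4, clec-52 and clec-85.

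Of 8 tested genes of the p38 pathway and its transcription factors, 2 rose in the mutant (25% beside 17.4% of all tested probe sets), the intestinal GATA factor elt-2 (0.76, adjusted p = 0.000791, SE 0.14) and the bZIP gene zip-2 (0.32, adjusted p = 0.0486, SE 0.12), and none of the others was called. The kinase genes sek-1 (0.01) and pmk-1 (0.004) did not pass. On skn-1 RNAi 0 of the 8 were called in either direction by limma, and 2 had an unadjusted p under 0.05. Of 10 intestine markers, 3 rose (30% beside 17.4%) and 2 fell (20% beside 10.1%) in the mutant. On skn-1 RNAi 2 of them rose (20% beside 9.99%) and 4 fell (40% beside 12.6%). Their signals summed to between 36680 and 43483 in N2, 38951 to 45368 in the mutant and 34903 to 39038 on skn-1 RNAi, and the part of intestinal content in the lectin changes was not tested.

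The galectins, the other lectin family tested, gave 2 rises and 1 fall among 12 in the mutant, and only falls, 3 of them, on skn-1 RNAi. The rises and the fall in the mutant, 16.7% and 8.33% of 12, are near the 17.4% and 10.1% of all tested probe sets, and the falls on skn-1 RNAi make 25% beside 12.6%. Their medians were 0.04 and -0.08. The largest change was in lec-7, with 72.9 ± 11.9 (n = 3, SD) in N2, 675 ± 125 (n = 4, SD) in the mutant and 233 ± 31.1 (n = 3, SD) on skn-1 RNAi (log2 changes 2.91, adjusted p = 3.44e-10, SE 0.16 and -1.45, adjusted p = 4.19e-06, SE 0.16).

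Neighbouring clec genes did not all move alike. In the WBcel235 annotation of RefSeq, used here only for which genes lie next to each other, 164 of 264 clec genes lie in 51 groups with at most 1 other gene between members. The pair clec-3 and clec-2 rose together, as did clec-204 (1.13) and clec-205 (1.21), and the pair clec-222 (-0.56) and clec-223 fell together. In the group clec-62 to clec-66 on chromosome II, clec-64 and clec-66 rose in the mutant and fell on skn-1 RNAi. The members clec-62 and clec-63 were not called in either comparison. Both clec-2 and clec-64 passed the filter only through the mutant control arrays. The clec-63 signal ran from 11082 to 13422 in N2, 10319 to 13316 in the mutant and 10035 to 12329 on skn-1 RNAi, with log2 changes of -0.08 and -0.07. The signal of clec-62 changed by 0.17 and -0.07, and that of clec-65 by -0.36 and -0.18. The second clec-65 probe set changed by 0.02 in the mutant and fell by 0.47 on skn-1 RNAi (adjusted p = 0.023 in the limma fit), as clec-64 and clec-66 fell there. Both clec-65 probe sets bear the suffix for shared sequences, so related transcripts may add to their signals.

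The group from clec-67 to clec-79 on chromosome IV held genes of both directions. Of its 8 tested members, clec-67, clec-72, clec-74 and clec-79 (0.64) rose in the mutant, clec-70 and clec-174 fell, and clec-73 (0.26) and clec-76 (0.46) did not pass. Of clec-73 and clec-74, which lie next to each other, the clec-73 signal ran from 149 to 226 in N2 and 187 to 265 in the mutant. The mean clec-74 signal was 43.8 in N2 and 2266 in the mutant. Among other neighbours of the genes with the largest changes, clec-8 next to clec-4 changed by 0.41, clec-51 near clec-52 by -0.25 (called under median centring, at -0.45), and clec-50 next to clec-49 by -0.33, a call lost without N2 replicate 1 (-0.30). Next to clec-227, clec-57 and clec-56 differed between the mutant on skn-1 RNAi and N2 by -0.10 in clec-56 and 0.000133 in clec-57.

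**Figure D5:**
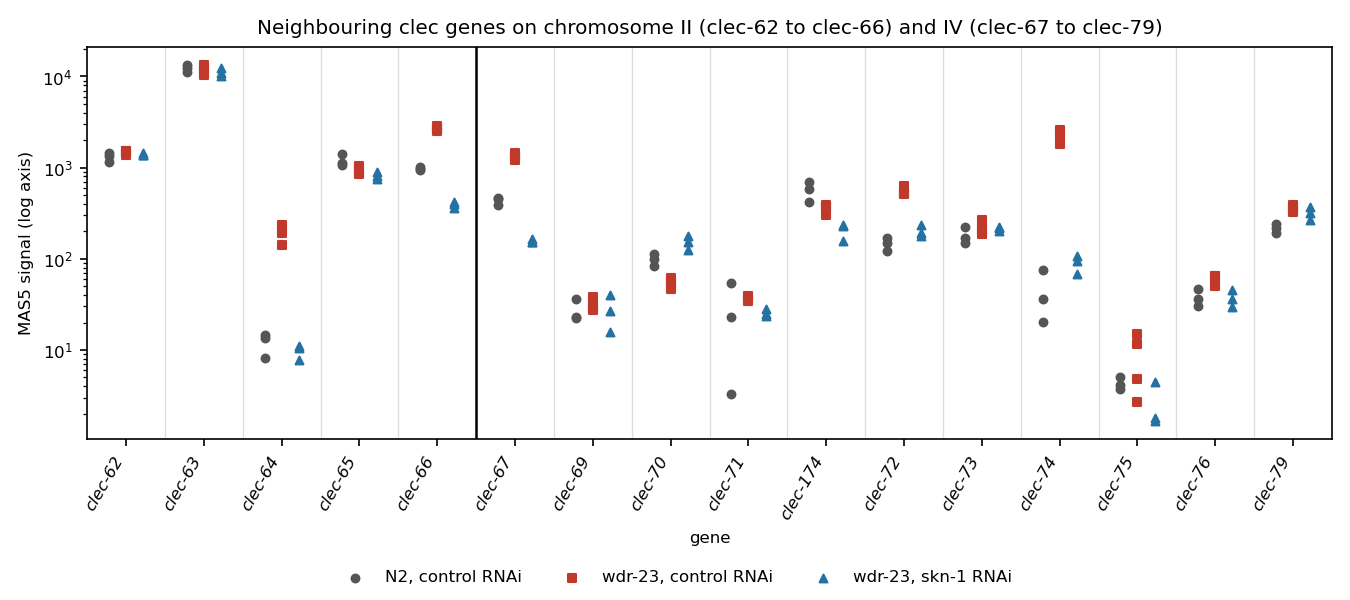
MAS5 signals of each array on a log axis for clec genes in chromosome order, left of the black line the group clec-62 to clec-66 on chromosome II and right of it the group clec-67 to clec-79 on chromosome IV (genes with a probe set of their own), colours and marks by group. In clec-64, clec-66, clec-67, clec-72 and clec-74 the red points of the mutant on control RNAi lie above both other groups, next to genes such as clec-63 and clec-73 whose 3 groups overlap.

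By chromosome, the tested members that rose in the mutant were 2 of 8 on I, 10 of 25 on II, 3 of 8 on III, 8 of 22 on IV, 5 of 29 on V and 1 of 3 on X. Those that fell were 5 on II, 2 on III, 4 on IV, 6 on V and 2 on X. Over all tested probe sets 17.4% were called higher and 10.1% lower. Whether chromosomes differ was not tested. Chromosome V, with 77 members, is the richest in clec genes on the array, and 29 of these passed the filter.

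Where a gene had a second bright probe set, it mostly moved the same way. For 7 genes 2 probe sets were tested, and their signs were the same in 6 of 7 genes in the mutant, in 6 of 7 on skn-1 RNAi and in 4 of 7 in the third comparison. The exception in the mutant was clec-65. The same sign did not always mean the same call. In clec-87, picked with its values in view, the counted probe set was called in neither of the first 2 comparisons (-0.24 and 0.17). Its dimmer one was called in both by limma (-0.27, adjusted p = 0.0427, and 0.37, adjusted p = 0.0111). Chosen after their values were seen, both probe sets of clec-88 fell in the mutant, the brighter one from 7058 ± 289 (n = 3, SD) to 5202 ± 220.4 (n = 4, SD) (log2 change -0.44, adjusted p = 0.0023, SE 0.09), and both rose on skn-1 RNAi (0.41, adjusted p = 0.00493, SE 0.09). A further 22 probe sets list a clec gene together with another gene and were not counted. Of the 8 of them that were tested, 6 were called higher and 1 lower in the mutant. Over all tested probe sets these shares were 17.4% and 10.1%. On skn-1 RNAi 0 were higher and 5 lower (beside 9.99% and 12.6%). Against N2 2 were higher and 2 lower (beside 3.88% and 2.46%).

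Among the 125 dim members, without the filter 3 rose and 2 fell in the mutant, and 1 rose and 4 fell on skn-1 RNAi. Between N2 and the mutant on skn-1 RNAi limma called 0, and 9 had an unadjusted p under 0.05. Some of 125 such p-values fall under 0.05 by chance, so the 9 are not taken as differences. The shares of all probe sets called without the filter are not given here. Whether the dim members were called more often than other probe sets is thus not stated. Among the dim members was clec-61, of the infection list. Its signals were 46.5, 45.3 and 60.6 in N2, 6.37, 4.44, 17.1 and 4.12 in the mutant and 47.7, 50.1 and 41.002 on skn-1 RNAi. The mutant control arrays were below all others, and without the filter limma gave a log2 change of -1.39 (adjusted p = 0.000275) in the mutant and of 1.295 (adjusted p = 0.00069) on skn-1 RNAi. The opposite direction was seen in clec-33, also chosen after its values were seen, with 18.9, 2.72 and 13.9 in N2, 59.2, 57.97, 67.7 and 57.7 in the mutant and 28.9, 37.3 and 28.99 on skn-1 RNAi. The axon-guidance gene clec-38 had signals of 1.45 to 2.07 in N2, 1.58 to 2.53 in the mutant and 1.60 to 2.60 on skn-1 RNAi, and was not tested. Of 18 members annotated as pseudogenes, 3 were tested.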

How the data were processed

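Total RNA (250 ng) of whole worms was labelled and hybridised to Affymetrix arrays. The authors deposited signals made with MAS5, per the submitters' processing notes, as intensity on a linear scale with no version given; genome build and detection calls are not given in the sources used here. Of 22625 probe sets, 77 controls were left out, 20766 name 1 gene, 887 several and 895 none. Gene symbols come from GEO's platform annotation, and all 220 clec genes matched the RefSeq table (WBcel235). The pseudocount of 19 is the 20th percentile of all signals, rounded, and 6765 probe sets with a mean log2 value of 5.71 or less were left out. The test was limma 3.58.1 in R 4.3.3 (lmFit, eBayes with intensity trend, two-sided, no replicate block), which was tested on simulated data; tables used python 3.11.15 with pandas 2.3.3. No pair of arrays held identical values. Precision is limited by how few arrays there are (median SE of members 0.16 to 0.17). Named genes were up to 10 largest called rises and falls with groups apart per comparison, called infection-list genes, neighbours of the first and clec-38; other genes the text names (such as clec-48, clec-173, clec-187, clec-204, clec-205, clec-62, clec-76 and clec-79) were picked with their values in view. The members, lists and rules were chosen with earlier results of these data known. Residual correlations were -0.16 to 0.18 for array pairs with the same replicate number and -0.17 to 0.17 for others. These ranges overlap, but with so few arrays they cannot exclude pairing by replicate number.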

Additional observations from a re-analysis of the deposited data

Results flagged for a closer look

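One value stood apart from the rest of its group. In the mutant on control RNAi, the only group large enough to examine, the highest clec-72 array had a signal of 633.7, while the other 3 lay between 513.8 and 525.4. The gap to the nearest array was 0.904 of the whole range, above Dixon's 95% critical value for 4 arrays. Among 40 genes examined in this way 1 was marked, where chance marks about 1 in 20.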

How the results depend on the processing

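The 6 counts of called clec genes were recomputed under 20 alternatives, 10 of them leaving out 1 array. Loss of wdr-23 raised 16 of 50 clec genes with the dimmer 50% of probe sets left out (fewer genes tested), and 19 after quantile normalization or median centring. Against N2, the genes higher in the mutant on skn-1 RNAi numbered 2 with a pseudocount of 100, 2 without the filter, and 3 under either other scaling, and the lower ones 9 of 75 with probe sets without a suffix (fewer genes tested). The cause of the changes with scaling and pseudocount was not tested. Leaving out single arrays gave 22 to 28 rises and 16 to 20 falls in the mutant, 8 to 11 rises and 20 to 25 falls on skn-1 RNAi, and 2 to 6 higher and 8 to 14 lower against N2. With a replicate block the counts were 29 and 17, 11 and 23, and 6 and 13, and the calls of clec-65 in the mutant (-0.36) and clec-266 against N2 (-0.81) were lost. Calls were gained by clec-51 in the mutant (-0.45) and clec-50 on skn-1 RNAi (0.30) under median centring, and by clec-8 in the mutant without N2 replicate 3 or mutant control replicate 1 (0.54 in both). All other alternatives left a count within 1.5 times. Of 65 called values of genes named by the rule, 49 kept their call in all alternatives that gave them a value, and 0 changed sign. By comparison the calls kept were 21 of 25, 20 of 23 and 8 of 17. The rule favours large changes, and called clec genes outside it are not in these figures. Several of those lost their call, such as clec-28 and clec-37 in the mutant and clec-205 and clec-221 on skn-1 RNAi. Dim members near the added pseudocount are the least certain.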
